A study of Rattus norvegicus with 9 samples.

Results

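Rat cardiosphere-derived cells are stromal progenitor-like cells grown out of heart tissue, and they can gather into spheres in culture. Here they were grown for 3 days on polystyrene (the PS group, in which attached cells also draw together into spheres over a base of supporting cells), on an ultralow attachment surface (the ULA group) or on a liquid-crystal substrate of octyl hydroxypropyl cellulose ester (the OPC group), and RNA was measured in 9 libraries, 3 biological replicates per group. All cells were primary cultures of wild-type animals, taken from the left ventricular septum of young (4-week-old) male Sprague Dawley rats and kept in the same medium with serum and β-mercaptoethanol, so the groups differ by label in the substrate alone. The sources do not say whether the replicates came from separate animals, so every p-value below measures the spread between these samples, which may be technical.

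The genes described are those in which the OPC group lay outside the range that PS and ULA span. A gene was taken when its 3 OPC values all lay above, or all below, every one of the 6 PS and ULA values, among the 12513 of 19919 listed genes with a value of at least 1 FPKM (read abundance per unit of gene length, adjusted for library size) in at least 3 libraries. OPC was above in 2421 genes, 19.3% of those tested, and below in 894 genes, 7.14%, together 3315 genes or 26.5%. These are the shares against which the counts of each gene list below are set. The remaining 9198 genes had at least 1 OPC value inside the range of the others. By the same rule PS was the outermost group in 6533 genes (52.2%) and ULA in 4647 genes (37.1%), so OPC was the group with the fewest outside genes. Because OPC against PS and ULA chose the genes, all OPC differences below are descriptions without a test. Genes were named by a rule on margin within the set and within lists, and Tiparp, Ahr, Arnt, Ugt1a7c, Csf3, Il6st, Csf2rb, Tlr2, Il7, Abcc9, Rack1, Tfeb, Rps10, Loxl1, Pla2g4a, Ptges, Ptges3 and Ptgds were added after their values were seen.

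How far outside a gene lay was measured by its margin, the difference on log2(FPKM + 1) between the OPC library nearest the others and the PS or ULA library nearest OPC. Most margins were small, with a median of 0.15 above and 0.15 below, and 36.9% of the genes above and 37.6% of those below had a margin under 0.1. A margin of at least 1, which is at least 2-fold on this scale between the nearest libraries, was seen in 46 genes above (0.368% of genes tested) and 20 below (0.16%). At the edge of the rule, Phc3 and Rc3h2 were just inside it above and Wdr24 and Tap1 just outside, while Nedd4 and R3hdm1 were just inside it below and Rrp1b and Cmc1 just outside, all with a margin of 0.00 after rounding. OPC replicate 3 was the OPC library nearest to the other groups in 53.7% of the genes above and 51.2% of those below. Rescaling the libraries moved the balance of the set. The median of all genes lay 0.07 higher in OPC than in the mean of the other groups on this scale, and with upper-quartile rescaling 1787 genes were above and 1258 below, so the share above went from 73.0% to 58.7%. Of the genes above 73.8% stayed in the set under that rescaling. All 894 genes below stayed too, but this was fixed in advance. Each OPC library had a larger scaling factor than every PS and ULA library, so rescaling could only lower OPC against them. List counts after upper-quartile rescaling therefore belong beside 1787 above and 1258 below of the 12513 genes tested. With median-of-ratios rescaling these were 1683 and 1333.

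The cells carried the transcripts of stromal cells in all groups. All 12 stromal markers listed were tested, of which Cd44, Pdgfrb and Ddr2 were above and Vim and Tcf21 below. Of the markers of other cell types, 2 of 11 endothelial, 3 of 14 myeloid, 2 of 10 cardiomyocyte, 4 of 8 neural and glial and 5 of 8 epicardial genes listed passed the filter. Some listed genes, such as the endothelial marker Pecam1, were not matched to the deposited values. They have no value here, so they were not found low. Kdr, a VEGF receptor of endothelial cells, was at most 0.0117 FPKM in every library, and the leukocyte marker Ptprc at most 0.0442. The endothelial genes that passed were Erg, at 2.35 to 5.1 FPKM and below in OPC, and Egfl7, at 2.96 to 7.46 and inside. Other markers were not low. Cd68 and Cd14 of the myeloid list reached 39.9 and 37.5 FPKM, both in ULA, and lay inside the range in OPC. Of the neural and glial list S100b reached 19.9 FPKM, and Ncam1 was at 91.8 to 94.1 in PS, 123 to 127 in ULA and 77.1 to 87.1 in OPC, which put it below by a margin of 0.08. Their part in the results was not tested. The summed level of the smooth muscle list was 4448 to 4528 FPKM in PS, 113 to 115 in ULA and 192 to 299 in OPC. Acta2 and Tagln carried most of that sum, at 2460.1 to 2532 and 1844 to 1854 FPKM in PS, while Kcnj8 of the same list was lowest in PS and above in OPC. In bulk RNA, fewer cells of a type and less RNA per cell cannot be told apart. The share of RNA from mitochondrial genes was 9.21% to 12.6%. Depth, read relative to PS replicate 1 from the value that 1 read takes in low genes, ranged from 0.871 to 1.17 between libraries.

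Several regulatory systems recur among these genes. The aryl hydrocarbon receptor is a transcription factor that small aromatic ligands activate. It then pairs with ARNT and switches on enzymes that oxidise such ligands, together with its own repressor. Chemokines such as the CXC ligands are secreted proteins that attract leukocytes and are commonly induced through NF-kappaB. Lysosomes break down proteins, lipids and glycans in a lumen acidified by the V-ATPase proton pump, and ribosomal protein genes supply the translation machinery, with messages that begin at a run of pyrimidines.

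The promoters of 4 genes that lay far above are shown because they carry the letters usually searched for these regulators. They are the windows from 250 bases before to 50 after the gene start in RefSeq, build GRCr8, matched for 9336 of the genes tested. In Ahrr (chr1:30821969-30822268, plus strand) and Cyp1b1 (chr6:21094315-21094614, plus strand) the capitals mark GCGTG, the core of the xenobiotic response element, or its reverse complement CACGC. In Cxcl1 (chr14:17479272-17479571, minus strand) and Cxcl6 (chr14:17596368-17596667, minus strand) they mark GGAATTTCC, a form of the NF-kappaB site or its reverse complement. All motifs below were searched on both strands.
Ahrr: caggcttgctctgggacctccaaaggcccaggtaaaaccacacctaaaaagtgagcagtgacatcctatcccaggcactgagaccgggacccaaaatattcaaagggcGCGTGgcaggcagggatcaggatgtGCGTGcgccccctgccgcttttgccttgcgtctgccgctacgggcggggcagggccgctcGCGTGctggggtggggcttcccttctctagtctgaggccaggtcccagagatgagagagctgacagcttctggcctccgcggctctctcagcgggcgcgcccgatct
Cyp1b1: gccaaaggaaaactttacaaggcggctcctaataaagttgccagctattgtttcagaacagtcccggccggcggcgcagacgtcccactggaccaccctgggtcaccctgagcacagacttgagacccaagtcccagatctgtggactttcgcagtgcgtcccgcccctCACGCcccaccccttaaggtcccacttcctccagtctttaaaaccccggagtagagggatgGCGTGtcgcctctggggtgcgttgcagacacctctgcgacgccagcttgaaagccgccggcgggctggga
Cxcl1: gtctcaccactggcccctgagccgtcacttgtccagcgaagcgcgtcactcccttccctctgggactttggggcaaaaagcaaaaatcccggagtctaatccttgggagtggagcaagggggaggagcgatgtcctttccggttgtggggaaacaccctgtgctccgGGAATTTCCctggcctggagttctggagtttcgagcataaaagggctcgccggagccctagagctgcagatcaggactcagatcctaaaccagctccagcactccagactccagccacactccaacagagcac
Cxcl6: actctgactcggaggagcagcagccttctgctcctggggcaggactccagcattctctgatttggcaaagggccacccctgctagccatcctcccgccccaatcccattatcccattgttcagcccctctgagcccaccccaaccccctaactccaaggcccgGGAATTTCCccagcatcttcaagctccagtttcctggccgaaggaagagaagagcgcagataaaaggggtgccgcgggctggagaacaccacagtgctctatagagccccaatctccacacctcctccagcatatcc
Ahrr held 3 copies of the core and Cyp1b1 held 2, but GCGTG is a short word and stood in 51.3% of all promoters, in 47.7% of those above and in 55.7% of those below. GGAATTTCC stood in 0.428% of all promoters, 0.584% of those above and 0.303% of those below. The AP-1 site TGACTCA was in 3.33% of all promoters, 2.81% above and 4.24% below, and ACGTG, the core of hypoxia response elements and some E-boxes, in 26.2%, 23.9% and 32.1%. The antioxidant core TGANNNNGC was in 43.2%, 43.7% and 41.5%, and TATAAA in 6.59%, 5.68% and 6.96%. The letters describe these windows and are not binding sites.

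Cyp1a1, the cytochrome P450 that is the classic target of the aryl hydrocarbon receptor, had the widest margin of the genes above. Cyp1a1 (ENSRNOG00000019500, rn6 chromosome 8, 62472095 to 62478147) was at 0.0775, 0.022 and 1.15 FPKM in PS, 4.28, 3.06 and 3.77 in ULA and 129.7, 162 and 107 in OPC. The 3 groups did not overlap, and the lowest OPC library lay 4.35 log2 units above the highest ULA library. Aldh3a1, an aldehyde dehydrogenase induced by the same receptor, was at 0.545, 0.265 and 2.36 FPKM in PS, 21.5, 12.8 and 18.2 in ULA and 216, 257 and 176 in OPC, a margin of 2.97. For both genes PS replicate 3 was the high library of its group. The same library was the highest of PS in 32 of the 46 genes with a margin of at least 1 above. It was the highest in 901 of all 2421 genes above, and in 5 of the 20 below with such a margin. What part this plays was not tested.

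Ahrr, the repressor that the receptor induces against itself, was at 0.261, 0.161 and 0.36 FPKM in PS, 1.16, 1.32 and 1.34 in ULA and 8.94, 11.2 and 7.09 in OPC. Cyp1b1, a related P450 that was already abundant, was at 408, 405 and 412 FPKM in PS, 319, 306 and 310.3 in ULA and 993, 1094 and 955 in OPC. It was lower in ULA than in PS (log2 difference of -0.39 ± 0.05 SE, limma adjusted p = 5.3e-05), so that OPC lay on the far side of PS. Nqo1, a quinone reductase shared with the NRF2 response, was at 139 to 152 FPKM in PS, 428 to 461 in ULA and 823 to 1031 in OPC, and Tiparp, another feedback gene of the receptor, at 18.6 to 19.6, 31.2 to 33 and 46.8 to 57.6. Of the 12 genes of the receptor list that were tested, 9 were above and 0 below, against 19.3% and 7.14% of all genes. The receptor itself was not among them. Ahr was at 66.5 to 70.6 FPKM in PS, 42.1 to 43.6 in ULA and 61.5 to 70.7 in OPC, and its partner Arnt was also inside. Ugt1a7c, which glucuronidates drugs, was above with a margin of 1.06, but Ugt1a genes share exons and its reads may belong to others of the cluster.

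Around these enzymes, 15 of 38 genes of the NRF2 and redox list were above and 2 below, and 13 and 10 were above with upper-quartile and median-of-ratios rescaling. Abcc4, an efflux transporter (OPC minus ULA of 0.95, OPC minus PS of 1.28), Sod3, the extracellular superoxide dismutase (0.75 and 0.94), and Mgst1, a microsomal glutathione transferase (0.51 and 2.22), were above. Txnrd1 and Prdx1, which reduce thioredoxin and peroxide, were below with margins of 0.02 and 0.00, so the list did not move as a block.

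**Figure D1:**
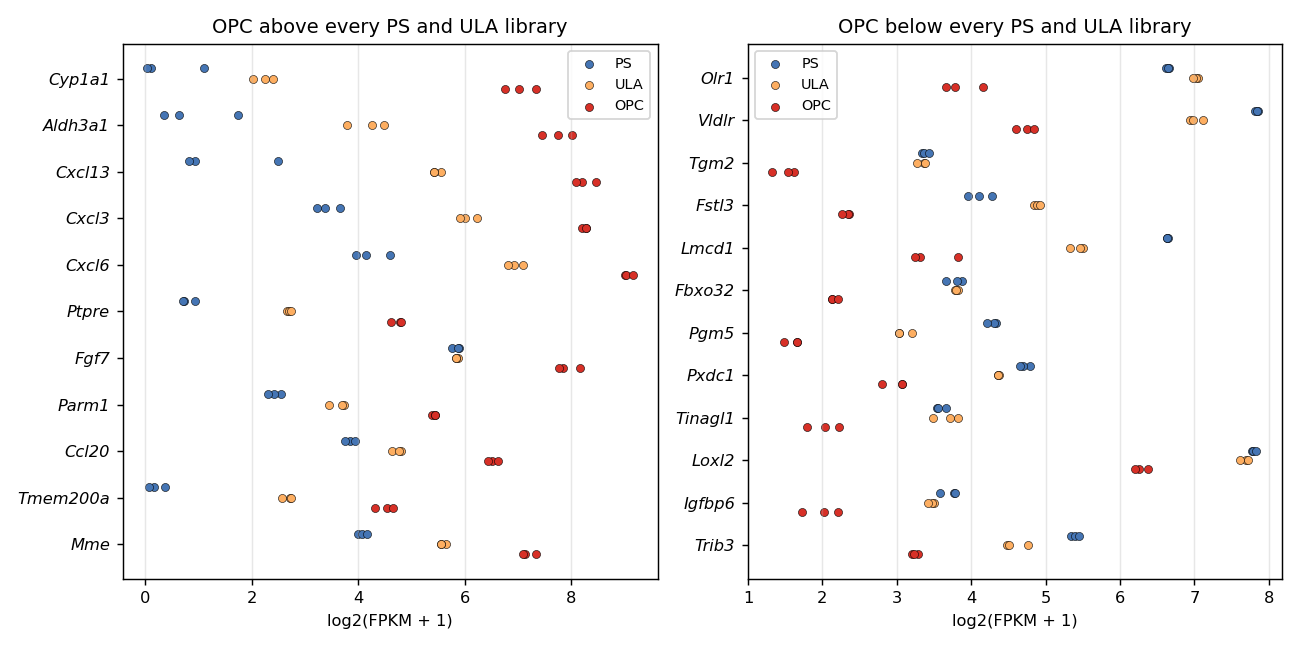
Values on log2(FPKM + 1) of 11 genes above and 12 below with large margins among genes with a symbol and a mean of at least 5 FPKM. Each point is 1 library. OPC is apart from PS and ULA in all 23 genes, as the rule requires, and PS and ULA overlap in genes such as Fgf7 and Tgm2 but are far apart in genes such as Cxcl13 and Lmcd1.

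Of the 46 genes with a margin of at least 1 above, Cxcl13, Cxcl3, Cxcl6, Ccl20 and Cxcl1 are chemokines. Cxcl13, which attracts B cells (ENSRNOG00000024899, rn6 chromosome 14, 15253125 to 15258207), was at 0.899, 0.765 and 4.64 FPKM in PS, 46, 41.9 and 41.7 in ULA and 296, 351 and 274 in OPC. Cxcl3, a neutrophil attractant, was at 9.44, 8.4 and 11.6 in PS, 74.6, 63.4 and 59.5 in ULA and 312, 296 and 312 in OPC. Cxcl6, another neutrophil attractant, was at 14.5, 16.6 and 23.1 in PS, 135, 121 and 111 in ULA and 517, 525 and 575 in OPC. In all 3 genes PS was lowest, ULA between and OPC highest, with no overlap. Cxcl1 was the most abundant in OPC of the 9 CXC ligands listed and tested. It was at 553, 563 and 570.3 FPKM in PS, 780.4, 734 and 662 in ULA and 2029, 1999 and 2112 in OPC, so most of its difference lay between ULA and OPC. Cxcl1, Cxcl3 and Cxcl6 lie in a cluster on rn6 chromosome 14, from 18743685 for the start of Cxcl1 to 18862407 for the end of Cxcl6, and are similar in sequence, so reads may have been split between them.

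Of the 9 CXC ligands on the cytokine and chemokine list that were tested, 5 were above and 0 below. The list as a whole had 12 of 28 above and 1 below, against 19.3% and 7.14% of all genes. Its median offset, the OPC mean minus the mean of the PS and ULA group means, was 0.79 against 0.07 for all genes. Ccl20, which attracts lymphocytes and dendritic cells through CCR6, was at 13.4, 12.5 and 14.4 FPKM in PS, 27.1, 23.8 and 26.4 in ULA and 90.3, 85.6 and 97.8 in OPC. Csf3, the granulocyte colony-stimulating factor, was low throughout, at 0, 0.18 and 0.209 in PS, 1.18, 0.85 and 0.296 in ULA and 4.21, 3.8 and 4.3 in OPC. The list member below was Lif, an IL-6 family cytokine, at 139 to 141 FPKM in PS, 119 to 143 in ULA and 104 to 109 in OPC.

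A few receptors, picked for their values, are given without a count. Il6st, the gp130 chain shared by IL-6 family receptors, was at 72.4, 74.5 and 75.4 FPKM in PS, 114, 116 and 108 in ULA and 271, 277 and 266 in OPC. Csf2rb, the common beta chain of the GM-CSF receptor, was at 0.0205, 0 and 0.101 in PS, 1.61, 1.15 and 1.15 in ULA and 7.16, 8.27 and 7.19 in OPC. For both genes the groups were ordered PS, ULA, OPC without overlap. Tlr2, a receptor for bacterial lipopeptides, was at 28.1 to 30.7, 41.8 to 47 and 91.1 to 93.1 FPKM in the same order. Il7, a lymphocyte growth factor made by stromal cells, was above with a margin of 1.09. In the NF-kappaB list 10 of 30 genes were above (8 under either rescaling) and 2 below, where 19.3% and 7.14% of all genes were. Those above included Tnip3, an inhibitor of the pathway (margin of 0.92), and Nfkb1, which encodes the p50 subunit (0.36), and those below were Nfkbiz and Cd40. The interferon and antigen presentation list had 10 of 33 above and 0 below. After upper-quartile rescaling only 6 were above, where 1787 of all 12513 genes were. Its margins were led by Irf7 (0.68, a gene that overlaps Phrf1 on the other strand), Oas1a (0.55) and B2m (0.43).

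Some enzymes of prostaglandin synthesis were above and others inside. Pla2g2a, a secreted phospholipase that can release fatty acids from membranes, was at 56.7, 52.8 and 60 FPKM in PS, 679, 593 and 561 in ULA and 1193, 1270.2 and 1138 in OPC. Ptgs1 and Ptgs2, the cyclooxygenases, were at 32.9 to 36.1 and 76.4 to 79.7 FPKM in PS, 43.7 to 45.6 and 88.8 to 113 in ULA, and 93 to 101 and 204 to 217 in OPC. Pla2g2a therefore differed mainly between PS and both other groups, and the cyclooxygenases mainly between ULA and OPC. In the prostaglandin and retinoid list 7 of 22 genes were above and 0 below, against 19.3% and 7.14% of all genes, but 5 were above and 2 below under either rescaling. Pla2g4a, Ptges, Ptges3 and Ptgds, further enzymes of the pathway, were inside.

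Growth factors were divided. Fgf7, the keratinocyte growth factor of stromal cells (ENSRNOG00000009425, rn6 chromosome 3, 118317761 to 118366872), was at 53.5, 58.7 and 57.9 FPKM in PS, 57.6, 56.5 and 56.5 in ULA and 231, 218 and 286 in OPC. PS and ULA overlapped (log2 difference of 0.00 ± 0.09 SE, limma adjusted p = 0.96), and OPC stood apart from both. Fgf7 overlaps Fam227b on the other strand, and whether counting used strand is not stated in the sources. Fgf10, which signals through the same receptor form, was at 9, 9.05 and 9.37 FPKM in PS, 7.97, 7.22 and 6.3 in ULA and 28.4, 24.8 and 27.4 in OPC. Of the 5 FGF ligands on the growth factor list that were tested, 3 were above and 0 below, against 19.3% and 7.14% of all genes. Bmp2, a morphogen of the TGF-beta superfamily, was at 1.39, 1.49 and 2.69 in PS, 33.6, 29.9 and 31.4 in ULA and 90.8, 87.1 and 90.1 in OPC, again ordered PS, ULA, OPC without overlap.

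On the other side, Fstl3, which binds and blocks activin, was at 16.2, 18.5 and 14.5 FPKM in PS, 27.8, 28.6 and 29.5 in ULA and 4.13, 4.07 and 3.78 in OPC. Tgfb3 and Inhba, the latter the activin A subunit, were also below, at 32.9, 29.9 and 38 FPKM and at 49.2, 44.7 and 50 FPKM in OPC. Tgfb3 was at 347 to 349.6 FPKM in PS and 54.8 to 58.2 in ULA, and Inhba at 151 to 154 and 57.6 to 59.4, so both differed mainly between PS and the other groups. Of 11 TGF-beta superfamily ligands picked from the growth factor list, 4 were above and 2 below, against 19.3% and 7.14% of all genes. Igfbp6, a binding protein that holds IGF-II, was at 12.7, 12.7 and 10.9 in PS, 10.3, 10.1 and 9.67 in ULA and 3.06, 2.29 and 3.61 in OPC. Over the whole growth factor list 15 of 42 genes were above and 2 below, with a median offset of -0.02.

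Of the 23 genes that the study itself measured or names, 16 were tested, and only Hgf and Igf1 were in the set. Hgf, the hepatocyte growth factor, was at 2.36, 2.56 and 2.7 FPKM in PS, 11.7, 9.44 and 10.1 in ULA and 23.3, 21.1 and 27.9 in OPC. Igf1 was at 9.1, 9.71 and 10.5 in PS, 26.1, 24.9 and 23.7 in ULA and 39.8, 43.2 and 44.7 in OPC. Both were higher in ULA than in PS by limma, by 1.68 ± 0.11 SE (adjusted p = 4.5e-07) for Hgf and 1.27 ± 0.06 SE (adjusted p = 8.7e-08) for Igf1. Vegfa lay inside, at 106 to 116 FPKM in PS, 474 to 517 in ULA and 196 to 204 in OPC. Eng, the CD105 marker of these cells, missed the rule through its lowest OPC library, which at 62.4 lay below the highest ULA library at 63.6. The glycolysis genes Hk2, Ldha and Pfkl were between PS and ULA in every OPC library.

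Genes of cell guidance and surface recognition were mostly above or inside. In the guidance list 16 of 34 genes were above and 0 below, against 19.3% and 7.14% of all genes. After upper-quartile rescaling 14 were above and 2 below. Of 10 Eph receptors and ephrins picked by name, not the whole family, 6 were above. Epha3, an ephrin-A receptor, was at 1.23, 1.1 and 1.44 FPKM in PS, 1.96, 1.94 and 1.44 in ULA and 6.85, 7.7 and 6.42 in OPC. Efnb1, a membrane-bound ephrin, was at 12.7 to 13.7, 16.3 to 16.7 and 36 to 38.3 in the same order. Slit2, the secreted ligand of Robo receptors, was at 8.16 to 9.15, 15.5 to 17.3 and 30.7 to 32.1. Among Wnt and Notch genes, 11 of 28 were above and 2 below. Sfrp2, a secreted frizzled-related protein, was at 5.44, 5.65 and 6.61 FPKM in PS, 62.8, 54.2 and 53.5 in ULA and 175, 169 and 157 in OPC, and Rspo3, which amplifies Wnt signals, was low but above with a margin of 1.15. Notch1 was above (0.58) and Notch3 below (0.35). Protocadherins, grouped after their values were seen, were above in 21 of 29 genes and below in 0, but the gamma genes share their constant exons, so they are not separate measurements.

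Other genes far above had other roles. Ptpre, a receptor-type protein tyrosine phosphatase, was at 0.645, 0.624 and 0.901 FPKM in PS, 5.33, 5.5 and 5.66 in ULA and 26.4, 27 and 23.6 in OPC. Mme, the membrane peptidase neprilysin, was at 14.9, 15.8 and 16.9 in PS, 49.1, 46.1 and 46.1 in ULA and 141, 136 and 160.5 in OPC. Parm1, a mucin-like membrane protein, and Tmem200a, a transmembrane protein, had margins of 1.66 and 1.59. In each of the 4 genes the groups were ordered PS, ULA, OPC without overlap. Abcc9 and Kcnj8, the sulfonylurea receptor and the pore that together form a KATP channel, lie side by side on rn6 chromosome 4. Abcc9 was at 17.5 to 18.4 FPKM in PS, 33.9 to 36.7 in ULA and 94.3 to 102 in OPC and Kcnj8 at 4.88 to 5.17, 14.3 to 16.4 and 24.4 to 26.9. Of the 9 smooth muscle markers tested, Kcnj8 alone was above, while Cspg4 and Cnn1 were below. Rack1, a scaffold of the small ribosomal subunit, was listed on 2 rows that went opposite ways, at 141 to 153 FPKM in OPC against 275 to 285 in PS on the more abundant row, which was below, and at 32.2 to 36 against 6.6 to 12.9 on the other, which was above, so its reads cannot be assigned with certainty.

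Lysosomal genes were above in large number and by modest amounts. In the lysosome and autophagy list 22 of 43 genes were above and 2 below (20 and 4 after upper-quartile rescaling), with a median offset of 0.50. By limma 31 of the 43 were higher in ULA than in PS. The median of the list, relative to the PS mean of each gene, was 0.54 to 0.64 in ULA and 0.69 to 0.73 in OPC. Most of this difference from PS was thus shared with ULA. Of the V-ATPase genes, grouped after their values were seen and in part also on that list, 13 of 19 were above and 0 below. With upper-quartile and median-of-ratios rescaling 11 and 9 were above. Gpnmb, a membrane glycoprotein of lysosomes, was at 211, 205 and 218 FPKM in PS, 922, 853 and 847 in ULA and 2001, 1881 and 1834 in OPC. Hexa, a subunit of beta-hexosaminidase, was at 133, 132 and 134 in PS, 147, 139.5 and 142 in ULA and 255, 257 and 256 in OPC. Gusb, the beta-glucuronidase, was at 15.4 to 16.9 in PS, 16.3 to 17.7 in ULA and 33.8 to 36.8 in OPC. Hexa and Gusb were thus close in PS and ULA and far above both in OPC, while Gpnmb differed between all groups. Lamp1, the abundant membrane protein of lysosomes, was lower in ULA than in PS (log2 difference of -0.25 ± 0.03 SE, limma adjusted p = 0.00011) and above both in OPC, at 423 to 441 FPKM. Gusb overlaps Vkorc1l1 on the other strand, and Lamp1 overlaps an unnamed gene on its own strand. Tcirg1, a membrane subunit of the proton pump, was at 21.7 to 23.7 FPKM in PS, 19.1 to 22.2 in ULA and 40.5 to 46.8 in OPC, and Atp6v1a, its catalytic subunit, at 41.2 to 44.7, 43.8 to 44.6 and 61.1 to 65.6. Tfeb, the transcription factor known to drive lysosomal genes, lay inside.

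Ribosomal protein genes had the largest share below among the lists counted. In the list 32 of 37 genes were below and 0 above. Both rescalings gave the same counts, but they lowered OPC and so could not take genes out of those below. Over all 80 ribosomal protein genes of the table, grouped after their values were seen, 60 were below and 0 above. The median of the list, relative to the PS mean of each gene, was -0.56, -0.42 and -0.48 in the ULA libraries and -0.93, -0.90 and -0.80 in the OPC libraries, where the median of all genes was 0.04 to 0.09 and 0.10 to 0.13. Summed over the list the level was 13429 to 13705 FPKM in PS, 8995 to 10192 in ULA and 6871 to 7345 in OPC. Rps20 was at 673, 701 and 706 FPKM in PS, 433, 519 and 496 in ULA and 276, 285 and 290.5 in OPC, which follows that order without overlap. Rps27 was at 195, 205 and 237 in PS, 211, 251 and 219 in ULA and 117, 125 and 123 in OPC, and Rps14 at 301, 322 and 359.7, at 283, 344 and 339 and at 171, 180.2 and 187. In these 2 genes PS and ULA overlapped and OPC alone was low. Many processed copies of these genes lie in the genome and could take reads, which was not tested.

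The starts of 3 ribosomal protein genes below are shown because their messages begin in a run of pyrimidines. They are the genes with the widest margins among those with the letters CTTTCC on the sense strand from 10 bases before to 15 after the start in RefSeq GRCr8, in capitals, and each shows 60 bases. They are Rps27 (chr2:177964567-177964626, minus strand), Rps14 (chr18:56498240-56498299, plus strand) and Rps10 (chr20:5700705-5700764, minus strand).
Rps27: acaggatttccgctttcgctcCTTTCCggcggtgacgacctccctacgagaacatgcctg
Rps14: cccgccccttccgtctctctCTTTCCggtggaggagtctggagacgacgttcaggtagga
Rps10: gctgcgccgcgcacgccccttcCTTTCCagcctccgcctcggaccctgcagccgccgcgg
CTTTCC stood there in 1.19% of all promoters, 1.11% of those above and 2.72% of those below. It stood in 15.8% of the promoters of 76 genes picked by a symbol beginning with Rpl or Rps. That pick can take in other genes, such as Rps6 kinases, so it is not the set counted above. The letters and the window were chosen after the sequences had been seen.

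**Figure D2:**
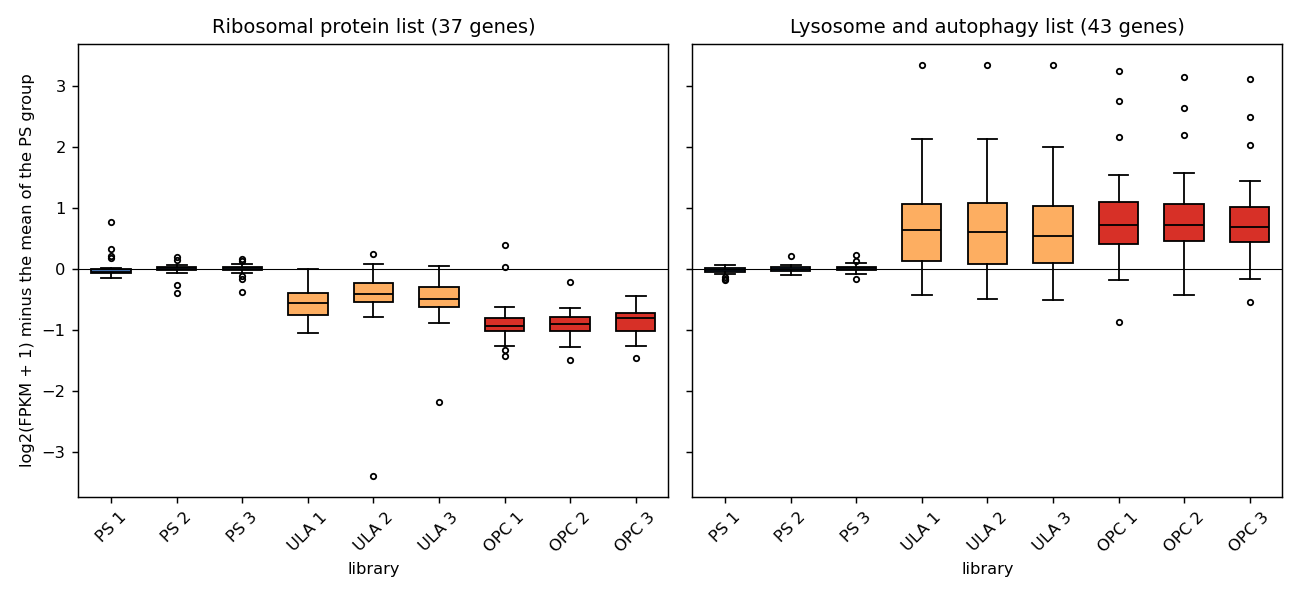
Boxes show, for each library, log2(FPKM + 1) minus the mean of the PS group over the 37 ribosomal protein genes (left) and the 43 lysosome and autophagy genes (right), with the median as a line, whiskers to 1.5 times the interquartile range and points beyond them. The ribosomal medians are lower in ULA than in PS and lower still in OPC (-0.93 to -0.80), and the lysosomal medians are 0.54 to 0.64 in ULA and 0.69 to 0.73 in OPC.

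Translation factors were below in a smaller share than ribosomal proteins, and mitochondrial ribosomal proteins in about the share of all genes. Of 60 translation factor genes, grouped after their values were seen, 13 were below and 2 above. Eif4ebp1, which holds the cap-binding protein eIF4E back when mTORC1 is inactive, was at 103, 109 and 107 FPKM in PS, 99.4, 114 and 116 in ULA and 43.5, 39.3 and 40 in OPC, with PS and ULA overlapping. Eif2s2, a subunit of eIF2, was at 143 to 144, 97.4 to 105 and 76.4 to 82. Mitochondrial ribosomal proteins, also grouped afterwards, were below in 6 of 73 genes (8.22%, against 7.14% of all genes) and above in 2. With upper-quartile and median-of-ratios rescaling 10 and 11 were below and 1 above, where 1258 and 1333 of all 12513 genes were below.

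The ATF4 branch, which cells use when amino acids are short or proteins misfold, was below in 10 of 29 genes and above in 1. Its median offset was -0.66, but 26 of the 29 were lower in ULA than in PS by limma at the same threshold. The summed level of the list was 1608 to 1644 FPKM in PS, 877 to 939 in ULA and 758 to 813 in OPC. It thus differed mainly between PS and both other groups. Trib3, a pseudokinase that ATF4 and CHOP induce, was at 39.4, 41.1 and 42.7 FPKM in PS, 21.3, 21.9 and 26.1 in ULA and 8.19, 8.76 and 8.36 in OPC. Atf4 itself was at 239, 234 and 235 in PS, 171, 213 and 185 in ULA and 135, 133 and 138 in OPC. Shmt2, a mitochondrial enzyme of folate metabolism, was at 64.2 to 69.3, 38.8 to 39.2 and 27.3 to 28.7. These 3 genes were ordered PS, ULA, OPC from high to low. Ddit3, which encodes CHOP, went another way, at 29.6, 34.6 and 37.9 in PS, 93.1, 116 and 102 in ULA and 24.4, 22.9 and 22 in OPC, so ULA was the high group. Gdf15, a stress cytokine on the same list, was the member above, at 22.3 to 23.6 in PS, 13.9 to 17.3 in ULA and 36.4 to 41 in OPC.

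The list of endoplasmic reticulum chaperones had 7 of 27 genes below and 0 above, with the other 20 inside. Its summed level was 3814 to 3843 FPKM in PS, 8779 to 9847 in ULA and 4317 to 4430 in OPC, so the sum in OPC lay between the other groups. Hspa5, the chaperone BiP, was at 413, 415 and 409.9 FPKM in PS, 1301, 1576 and 1580.0 in ULA and 362, 359.6 and 375 in OPC. Herpud1, of the degradation pathway, was at 74.9 to 76.6, 115 to 147 and 43.4 to 44.5, and Sel1l, of the same pathway, at 52.9 to 53.4, 80.9 to 89.6 and 46.3 to 47.8. ULA was higher than PS in each (Hspa5 by 1.84 ± 0.07 SE, limma adjusted p = 1.1e-08), and OPC lay a little under PS for Hspa5 and Sel1l, whose margins were 0.13 and 0.14.

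Olr1 and Vldlr, receptors that take up lipoproteins, had the widest margins below. Olr1, the receptor of oxidised LDL (ENSRNOG00000056219, rn6 chromosome 4, 163239849 to 163261958), was at 96.8, 99.6 and 99.2 FPKM in PS, 131, 129 and 125 in ULA and 12.8, 11.6 and 16.8 in OPC. Vldlr, the VLDL receptor (ENSRNOG00000027491, rn6 chromosome 1, 245237736 to 245269205), was at 225, 231 and 228 in PS, 122, 125 and 138 in ULA and 25.9, 23.3 and 27.7 in OPC. OPC was far under both groups in either gene, with a margin of 2.45 for Olr1 and an OPC minus ULA difference of -2.28 for Vldlr (log2 scale), although ULA lay above PS for Olr1 and below it for Vldlr. Txnip, an inhibitor of thioredoxin and of glucose uptake, was at 23.3, 22.7 and 23 in PS, 334, 341 and 344 in ULA and 9.76, 9.43 and 6.7 in OPC. It had the widest gap between ULA and OPC of the genes named here (OPC minus ULA of -5.16), while its margin to PS was 1.14.

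Several enzymes that modify or cross-link collagen were below, though not all. Lox, the lysyl oxidase that cross-links collagen and elastin, was at 612, 601 and 589.9 FPKM in PS, 401, 399 and 421 in ULA and 120.0, 113 and 176 in OPC. Loxl2, a related oxidase, was at 219, 219 and 226 in PS, 206, 195 and 211 in ULA and 75.6, 72.7 and 81.9 in OPC. P4ha1, the prolyl hydroxylase that stabilises the collagen helix, was at 269 to 272, 314 to 333 and 163 to 171. Tgm2, the tissue transglutaminase, which also cross-links matrix proteins, was at 9.12, 9.32 and 9.76 in PS, 9.27, 9.42 and 8.67 in ULA and 1.5, 2.08 and 1.91 in OPC. OPC was low in all 4, whereas PS and ULA overlapped for Tgm2 only. Loxl1, another lysyl oxidase, was above by a margin of 0.06, at 128 to 134 FPKM in OPC against 119 to 123 in PS and 89.3 to 95.6 in ULA. Lox overlaps Zfp474 on the other strand. In the list of hypoxia-induced genes, to which Lox, Loxl2, P4ha1, Stc2 and Vldlr also belong, 9 of 29 were below, and the members above were Hif1a and Epas1, the HIF subunits themselves, with margins of 0.10 and 0.16. Collagens and other matrix genes were below in 8 of 53 and above in 6, among them Col5a2 and Col4a1 below (margins of 0.39 and 0.26) and Vcan and Fbln5 above (0.53 and 0.47). In the protease list Lox and Loxl2 were among 5 of 33 below, while 10 were above. Among these Mmp14, a membrane-bound collagenase, was at 337 to 351 FPKM in PS, 830.0 to 896 in ULA and 1259 to 1359 in OPC.

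Several genes of caveolae, adhesion and the cytoskeleton were below. Cav2, a caveolin, was at 19.1, 20 and 16.8 FPKM in PS, 17, 16.2 and 16 in ULA and 5.79, 5.23 and 7.02 in OPC. Cav1, its partner, was at 301 to 307 in PS, 61.4 to 62.9 in ULA and 45 to 54.1 in OPC, so it differed mainly between PS and both other groups. Pgm5, a protein of adherens junctions known as aciculin, was at 19.1, 18.8 and 17.5 in PS, 7.2, 7.14 and 8.22 in ULA and 2.16, 1.79 and 2.14 in OPC. Lmcd1, a LIM domain cofactor of muscle genes, was at 97.9, 99 and 97.9 in PS, 39.3, 44.5 and 43 in ULA and 8.95, 8.51 and 13.2 in OPC. Vim, the intermediate filament vimentin and a stromal marker, was at 2024, 2043 and 2039 in PS, 1273, 1481 and 1433 in ULA and 597, 580.5 and 676 in OPC. All but Cav2 ran from PS to ULA to OPC without overlap. The integrin and adhesion list had 7 of 33 genes below and 5 above, and the actin and contractile list 1 of 30 below, Cnn1, and 0 above. The summed level of that list was 17803 to 17958 FPKM in PS, 3049 to 3099 in ULA and 4229 to 4943 in OPC, so OPC lay between the others. Fbxo32, the muscle ubiquitin ligase atrogin-1, was at 11.7 to 13.7 in PS, 12.8 to 13.1 in ULA and 3.39 to 3.62 in OPC. Tinagl1, a matricellular protein, and Pxdc1, a PX domain protein, had margins of 1.26 and 1.28.

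**Figure D3:**
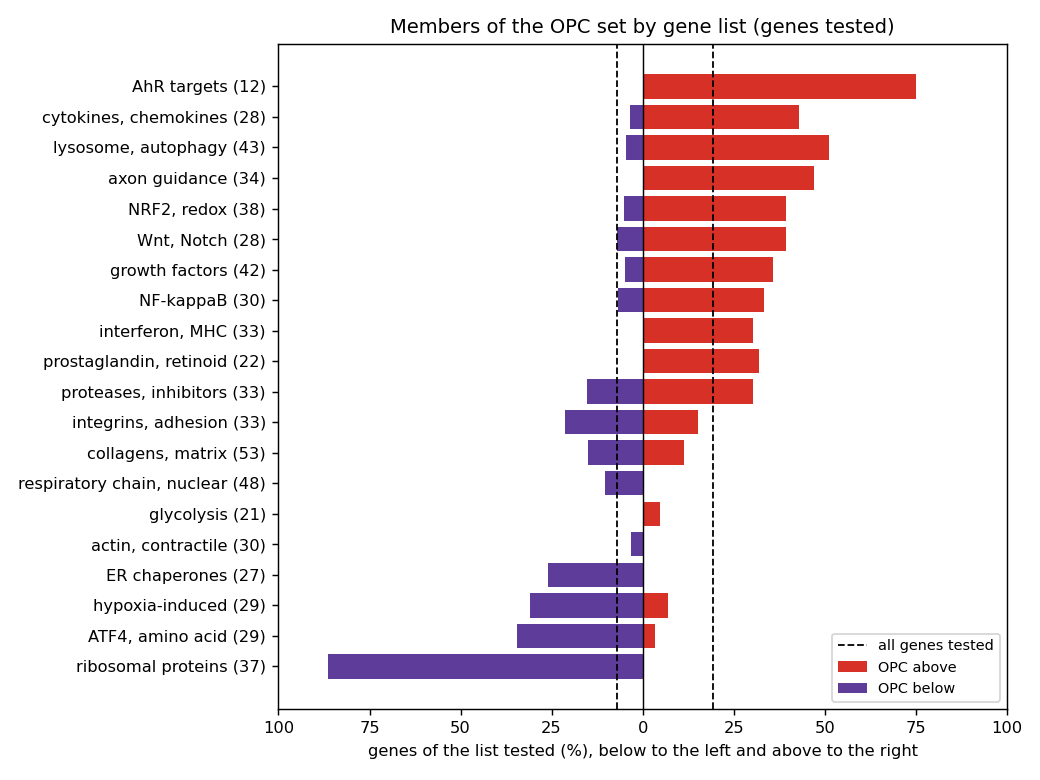
Share of the tested genes of each list that lay above (red, to the right) or below (purple, to the left) every PS and ULA library, with the number tested in parentheses. Dashed lines mark the shares of all genes tested, 19.3% above and 7.14% below. Targets of the aryl hydrocarbon receptor reach 75% above and ribosomal proteins 86.5% below.

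PS and ULA were compared by limma, the contrast that did not choose the genes. In all genes tested, 38.4% were higher and 30.5% lower in ULA than in PS at an adjusted p of at most 0.05, together 68.9%, and 15.8% also had a log2 difference of at least 1. Of the genes above, 1019 (42.1%) were higher and 417 (17.2%) lower in ULA, and of those below, 170 (19.0%) were higher and 390 (43.6%) lower. The rule favours genes with a narrow range from PS to ULA, so nothing is read from these shares against those of all genes. In terms of library values, the genes above had PS under ULA without overlap in 1102 (45.5%), ULA under PS in 495 (20.4%) and overlapping groups in 824 (34.0%). The genes below had PS under ULA in 191 (21.4%), ULA under PS in 401 (44.9%) and overlap in 302 (33.8%). Among the 46 genes with a margin of at least 1 above, 34 had the order PS, ULA, OPC, 5 had ULA lowest and 7 had PS and ULA overlapping. Among the 20 below, 11 had the order PS, ULA, OPC from high to low, 4 had ULA highest and 5 had overlap.

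**Figure D4:**
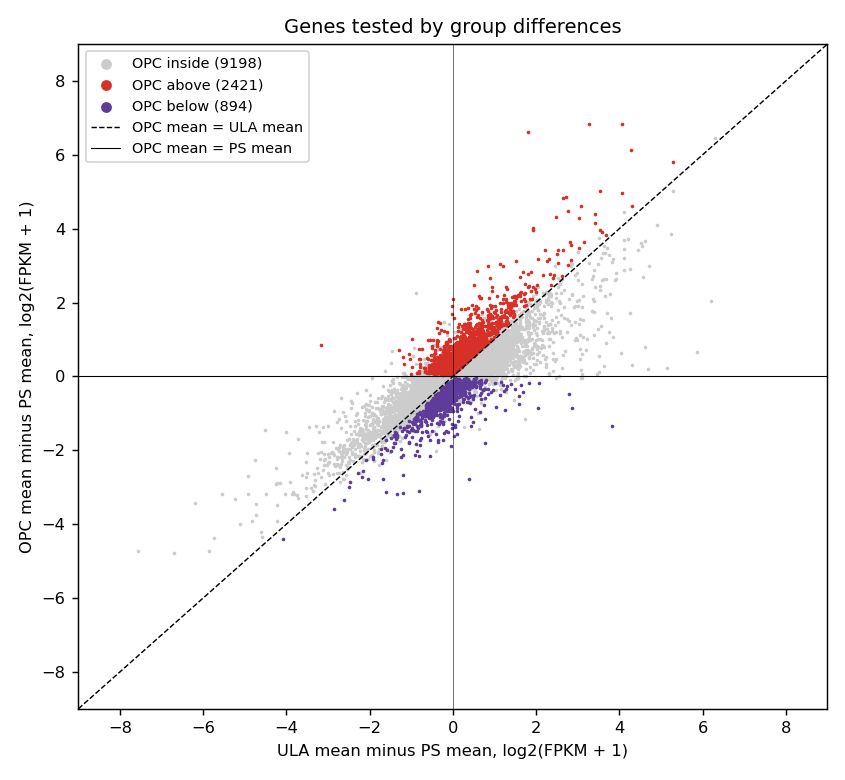
Each point is a gene, placed by the ULA mean minus the PS mean (horizontal) and the OPC mean minus the PS mean (vertical) on log2(FPKM + 1). The 2421 genes above (red) and 894 below (purple) lie outside the wedges between the dashed line, where OPC equals ULA, and the horizontal line, where OPC equals PS, and the 9198 others are grey.

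Genes above were longer in genomic span than those below, with medians of 26752 and 16301 bp in rn6 against 18747 bp for all genes tested. This was not tested, since the genes were chosen on their values. The share of genes above ranged from 15.3% on chromosome 17 to 23.8% on chromosome 18, and the share below from 4.55% on chromosome 12 to 9.03% on chromosome 7. In the rn6 spans of the table, 12.5% of the genes above and 10.1% of those below overlapped a gene on the other strand, against 12.5% of all genes.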

How the data were processed

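RNA of 9 libraries, 3 each of the PS, ULA and OPC groups, was deposited by the authors as 1 table of values per gene. The deposited values were taken as FPKM, normalized by the authors for gene length and library size. No source names that unit. It was read from the table, where the libraries sum to 444736 to 460732 and the value of 1 read differs between genes. Alignment to rn6 with HISAT2 (version 2.1) and the use of StringTie (version 1.3.0) come from the notes of the submitters, and featureCounts and DESeq2 from the methods of the study. The sources used here give neither the tool behind the values nor the strand setting. The labels and the study's methods name different RNA extraction reagents.

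The test covered genes that reached 1 FPKM in 3 or more of the libraries. Differences were taken on log2(FPKM + 1), a scale that understates the change of low genes. ULA was compared with PS by limma 3.58.1 in R 4.3.3 with a trend, the 3 groups in 1 fit (6 residual degrees of freedom), two-sided, with Benjamini-Hochberg adjustment over all genes tested and a threshold of 0.05. Counts and margins were computed in Python 3.11.15 with pandas 2.3.3 and numpy 2.4.6, and the fit was tested on simulated data. Raw counts were not used, and precision between libraries is limited by depth, which the table gives only as relative to a library.

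The members, the lists and the rule for names were chosen with earlier results of these data known. Named were the 12 genes above and 12 below with the largest margin among genes with a symbol and a mean of at least 5 FPKM, up to 5 members per list in its main direction and 3 in the other, the genes the study names, and those next to the edge of the rule. Some genes that the rule selects are not reported here. Alternatives were 2 rescalings, no filter or a mean of at least 5, pseudocounts of 0.1 and 5, no trend, a replicate block and leaving out each library.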

Additional observations from a re-analysis of the deposited data

How the results depend on the processing

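Rescaling changed the balance of the set most, to 1787 above and 1258 below with upper quartiles and to 1683 and 1333 with medians of ratios. Of the genes above 73.8% and 69.5% stayed above. All 894 genes below stayed below under both, which was fixed in advance, because both rescalings divided the OPC libraries by the largest factors. Requiring a margin of at least 1 left 46 genes above and 20 below. That count depends on the pseudocount, with 24 above and 8 below at a pseudocount of 5 and 40 below at 0.1, as the construction of the scale implies for low genes. Leaving out 1 library, which loosens the rule, gave 2498 to 2855 genes above and 942 to 1145 below, and 46 to 55 and 20 to 24 with a margin of at least 1. In the test of ULA against PS it gave 4496 to 4813 genes higher and 3556 to 3830 lower, among the genes above 951 to 1020 and 358 to 414, and among those below 151 to 176 and 345 to 398. For the 24 genes with the largest margins, 267 margin values under alternatives moved by less than the spread between replicates and 45 by more. Of these values 0 changed sign, but for most this was fixed in advance. Leaving out 1 library keeps a margin as it was or widens it, and a pseudocount does not change the order of the libraries. The rescalings could not change the sign for the genes below. A change of sign was therefore possible only for the genes above under rescaling. No pairing by replicate number was visible in the values, where the deviations of same-numbered libraries correlated at -0.0394 to 0.0542. That cannot show whether same-numbered samples shared a cell batch or animal. With a replicate block, 4761 genes were higher and 3779 lower in ULA than in PS, 1000 and 398 of the genes above and 166 and 386 of those below.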

Other observations

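Further lists are given beside the shares of all genes, 19.3% above and 7.14% below. Their counts after rescaling belong beside the counts of all genes under the same rescaling. Of 16 inflammasome genes 3 were above (18.8%) and 4 below. Casp4, an inflammatory caspase, was at 58.4, 56.9 and 58.8 FPKM in PS, 44.2, 51.9 and 52.3 in ULA and 22.2, 25 and 22.9 in OPC. Il1rn, the interleukin-1 receptor antagonist, was at 5.31, 5.95 and 5.47 in PS, 6.49, 6.5 and 5.89 in ULA and 10.2, 10.6 and 13.3 in OPC. OPC thus lay under both groups for Casp4 and above both for Il1rn. Among 38 immediate-early genes 5 were above, led by the nuclear receptor Nr4a2 (margin of 0.77), and 7 below, led by the small MAF factor Maff (0.95) and the MAP kinase phosphatase Dusp4 (0.74). Klf2, a zinc finger factor of the same list, was below at 8.94 to 12.8 FPKM, with ULA replicate 2 at 21 and the other ULA libraries at 52.9 and 60.7.

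Of 28 p53 and cell death genes 8 were above (28.6%) and 1 below, but 5 were above with upper-quartile and 4 with median-of-ratios rescaling. Cdkn1a, the cell cycle inhibitor p21, was at 115, 108 and 110.2 FPKM in PS, 117, 108 and 109 in ULA and 194, 203 and 176 in OPC, and Bid, a BH3-only protein, had a margin of 0.77. The cell cycle list itself had 2 of 41 genes above and 3 below, under the shares of all genes on the upper side. Of 22 iron genes 7 were above and 0 below, of 12 complement genes 4 and 0, and of 28 ion channel genes 9 and 2. With upper-quartile rescaling these counts were 6 and 2, 4 and 0, and 7 and 3. Meox2, a homeobox factor, was at 2.15, 1.35 and 2.11 FPKM in PS, 2.59, 3.85 and 3.15 in ULA and 9.26, 8.76 and 8.85 in OPC. Nuclear genes of the respiratory chain were below in 5 of 48 and above in 0. After upper-quartile rescaling these were 10 and 0, where 1258 of all 12513 genes were below and 1787 above.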
